A study of Rattus norvegicus with 2 samples.

Results

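The Rab genes encode small GTPases that mark the membranes of the cell and direct vesicles between them. In rat urine RNA, 55 genes were taken as Rab genes: those listed under an NCBI gene ID whose RefSeq symbol is Rab, a number and at most 1 letter from a to e. They are 55 of 16329 genes with a symbol in a table of 113011 features, and the rule itself uses no measured value. The study asked which RNAs in urine differ when a kidney becomes fibrotic. There were 2 libraries from Sprague Dawley rats, 1 labelled WT and 1 labelled UUO, with an age label of post natal day 56. UUO is unilateral ureteral obstruction, made here by tying off the right ureter at 8 weeks of age. The WT group had the same surgery without the tie, so it is a sham group, and samples were taken 2 weeks later. In sham and obstructed rats alike, urine was drawn by catheter from the ureter, and the number and sex of the rats behind a library are not given in the sources used here. The condition names in the table are abbreviations, and the UUO and WT columns were told apart with the help of the headings of the study's urine lists, so every direction below rests on that reading.

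A Rab protein switches between a GTP-bound form, which sits on a membrane and recruits effectors, and a GDP-bound form, which is held in the cytosol by GDI (GDP dissociation inhibitor). Exchange factors turn it on, and GTPase-activating proteins turn it off. Rab5 marks early endosomes, Rab4 and Rab11 mark recycling endosomes, Rab7 and Rab9 mark late endosomes, Rab3 and Rab27 mark secretory vesicles, and Rab1, Rab2 and Rab6 serve the endoplasmic reticulum (ER) and the Golgi. Kidney tubule cells take up filtered protein through apical endosomes. The umbrella cells of the urothelium, the lining of the urinary tract, carry uroplakin plaques to their surface in fusiform vesicles, to which Rab27b has been assigned.

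Levels are given as FPKM, the fragments of a transcript divided by its length and by the depth of the library, which makes it a level per length, so genes can be set side by side. With 1 library per group there is no replicate, no error of a value and no test, and each difference describes these 2 libraries. Fragment counts are approached through the steps of the FPKM values. For each library, a normalising total and a length offset were fitted, within a fixed range, so that most short assembled features came near whole fragments. At the best fit, 93.5% of 186 features in WT and 99.5% of 3530 in UUO urine came within 0.1 of a whole number. The totals were 2116000 and 2446000, and the offsets 128 and 176 bases. These shares are what the fit maximised, so they do not check it. On a transcript of 2000 bases, 1 fragment then stands for 0.252 FPKM in WT against 0.224 in UUO urine, and 10 fragments for 2.52 and 2.24. A Rab gene with an FPKM near 2 thus rests on few fragments if its transcript is of about that length, and transcript lengths are not in the table. A value of exactly 0 may be a failed estimate, so such a gene is described only as listed at 0 and is given no fold. In bulk RNA of this kind, fewer cells of a type and less RNA per cell cannot be told apart.

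Rab RNA was found in both urines, and most Rab genes were detected in each. At an FPKM of at least 1, WT urine held 38 of the 55, UUO urine 45, and 37 were in both. Over all genes with a symbol, the share was 47.7% for WT urine and 56.7% for UUO urine. A set of 6 genes was listed at 0 in both libraries (Rab3b, Rab12, Rab26, Rab33a, Rab36 and Rab39a), and Rab3c, Rab9b and Rab30 stayed under 1 in both. That leaves 46 Rab genes with an FPKM of at least 1 in either library, on which the counts below are made.

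The highest Rab genes differed between the urines. In WT urine Rab3d was the highest at 208.6, followed by Rab7a at 186 and Rab14 at 145, with Rab6a at 126 and Rab25 at 111 after them. In UUO urine Rab25 was the highest at 84.7, followed by Rab1a at 65.7 and Rab6a at 46.1, with Rab11a at 42.0 and Rab14 at 39.9 after them. Rab3d, a Rab of secretory granules, was thus the leading Rab of WT urine and was absent from the upper 5 of UUO urine, whereas the epithelial Rab25 was in both. The 55 genes together held 0.553% of the summed FPKM of all genes with a symbol in WT and 0.321% in UUO urine. That sum was 336636 in WT and 269741 in UUO urine, of which 9 red cell markers made up 2562 and 79674. The share of the Rab genes therefore also depends on the red cell RNA. Over the 37 genes detected in both, Spearman's rho between the libraries was 0.651. Over the 7210 such genes of the whole table it was 0.680. Both are descriptions across genes of the same 2 libraries.

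**Figure D1:**
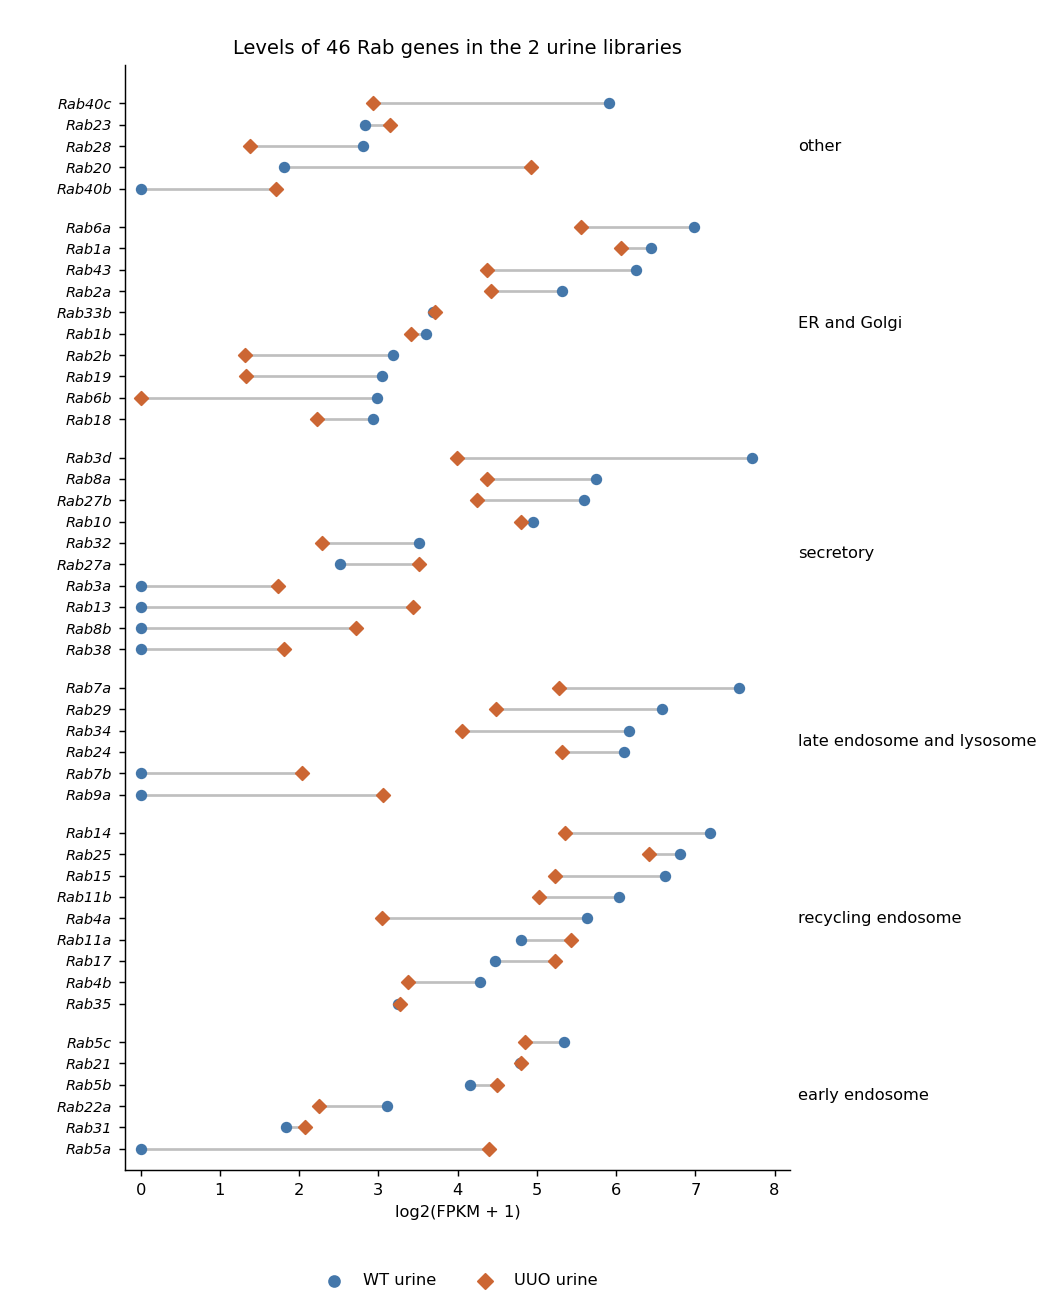
Level of the 46 Rab genes with an FPKM of at least 1 in either library, on a log2(FPKM + 1) axis, grouped by compartment and ordered by their level in WT urine. Circles are the WT library and diamonds the UUO library, and a symbol at 0 is a gene listed at or near 0. Rab3d and Rab7a lie farthest to the right in WT urine, at 208.6 and 186.

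More Rab genes were lower than higher in UUO urine. Differences are given as UUO minus WT on the log2(FPKM + 1) scale, which understates those of low genes, and a gene was called higher or lower from a difference of 1 upward in either direction (2-fold). Of the 46 genes, 18 were lower and 9 were higher, and 19 were within the limit. Over all 9831 genes that met the same filter, 36.6% were lower and 25.6% higher, so that 39.1% and 19.6% of the Rab genes lay near the background. The median difference was -0.60 for the Rab genes and -0.51 for all genes. This direction depends on how the libraries are scaled. When FPKM was rescaled to equal sums, by the median ratio or to the same 75th percentile, the median of all genes moved to 0.15, 0.46 and 0.38, and that of the Rab genes to -0.03, 0.23 and 0.18. The Rab counts became 12 higher and 12 lower, 14 and 10, and 14 and 11. At the same scalings 34.9%, 39.7% and 38.5% of all genes were higher, against 26.1%, 30.4% and 30.4% of the Rab genes. Of all genes 20.9%, 15.6% and 16.8% were lower, against 26.1%, 21.7% and 23.9% of the Rab genes. The lower side kept 10 genes under all 3 rescalings, among them Rab6b, whose UUO value of 0 no rescaling changes. Each rescaling raises the UUO values above 0 by 1 factor, so it moves their differences only upward.

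The higher side rested mostly on genes with little or no signal in WT urine, among the Rab genes as among all genes. Of the 9 higher genes, 7 were listed at 0 in WT urine (Rab5a, Rab13, Rab9a, Rab8b, Rab7b, Rab38 and Rab40b). On this scale, a gene listed at 0 in WT and with an FPKM of at least 1 in UUO urine always counts as higher. Over all 9831 genes that passed the filter, 1891 (19.2%) showed this pattern, and 2521 were higher. Rab3a had an FPKM of 0.00256 in WT urine, less than 1 fragment would give on 2000 bases. Rab20 was the only higher gene detected in both urines. Among the higher genes, the authors gave Rab3a, Rab7b, Rab38 and Rab40b the status NOTEST and Rab5a LOWDATA. The others had the status OK. On the lower side, Rab6b alone was listed at 0 in UUO urine, a pattern of 1.67% of all genes. Among the 37 Rab genes detected in both urines, 1 was higher and 17 were lower, while 7% and 42.8% of the 7210 genes detected in both were. The median was -0.90, against -0.81 for those genes.

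Markers of several cell types moved between the urines, and their part in the Rab values was not tested. Of 16 leukocyte and myeloid markers WT urine held 3 and UUO urine 14, 12 were higher, and their summed FPKM was 15.6 and 201.2. Ptprc, Cd68 and Csf3r were among the 13 listed at 0 in WT urine. Over all genes with a symbol, 8315 of 16329 were listed at 0 there. Of the 9831 that passed the filter, 25.6% were higher and 36.6% lower. The summed FPKM of 12 urothelium markers was 2976 in WT against 3713 in UUO urine, with 4 higher and 2 lower. Krt5 was listed at 0 in WT urine, but summed over the 25 features of its locus, WT urine had 317 and UUO urine 346. The 2 lower ones were Psca, at 557 in WT against 97.6 in UUO urine, and Krt20, at 26.4 against 12.5. The summed FPKM of 12 proximal tubule markers was 1202 and 367, with 9 lower and 1 higher. That of 12 markers of loop, distal tubule and collecting duct was 335 and 300.4, with 3 higher and 3 lower. That of 9 red cell markers was 2562 and 79674, with 8 higher, and all 6 platelet markers found were listed at 0 in WT urine, against a sum of 204 in UUO urine.

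**Figure D2:**
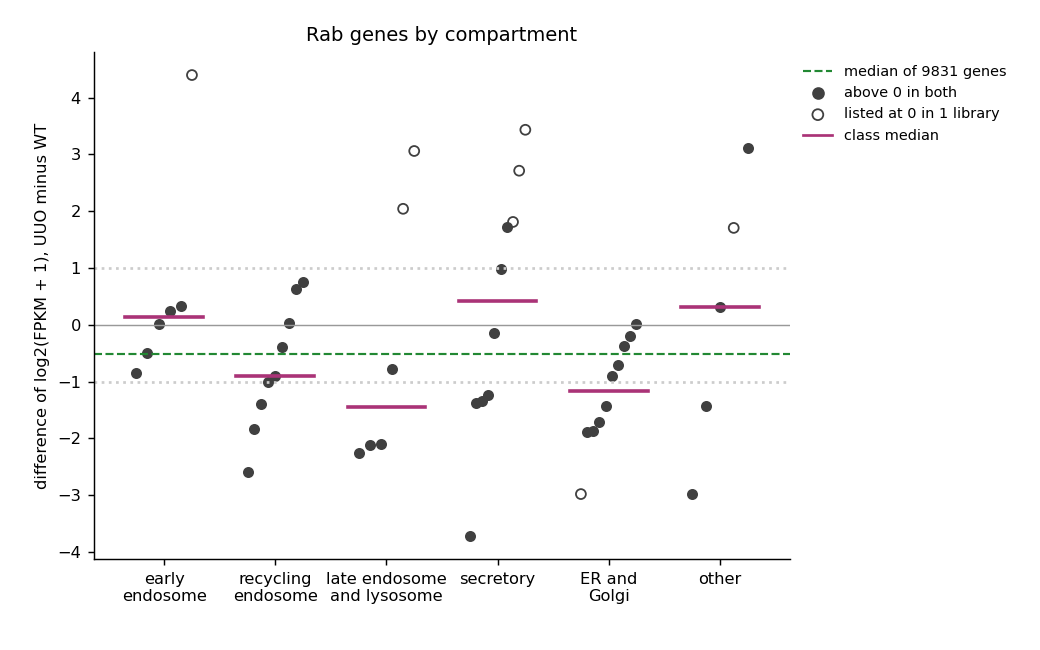
Difference of log2(FPKM + 1), UUO minus WT, for each of the 46 Rab genes by compartment. Open circles are genes listed at 0 in 1 library, thick lines the class medians, the dashed line the median of all 9831 genes at -0.51, and dotted lines the 2-fold limit. The 3 late endosome genes below -2 are Rab7a, Rab34 and Rab29, and the lowest secretory gene is Rab3d at -3.72.

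The early endosome Rabs, apart from Rab5a, lay inside the 2-fold limit before rescaling. Where a pair of values is given below, the first is FPKM in WT and the second FPKM in UUO urine. Over all genes that passed the filter, 36.6% were lower and 25.6% higher, with a median of -0.51. All 6 early endosome Rabs passed it, 0 were lower and 1, Rab5a, was higher, with a class median of 0.13. That median could only rise under the rescalings, because each of them raises the UUO values. Rab5c, 1 of the 3 forms of Rab5 that drive fusion of endocytic vesicles, stood at 39.7 FPKM in WT against 27.8 in UUO urine. Rab5b had 16.8 and 21.6, a difference of 0.34. Rab21, which carries integrins inward, had 26.5 and 26.9 and was the closest match of the class. Rab22a, which acts between early and recycling endosomes, was the lowest of the class by difference, at 7.60 in WT against 3.75 in UUO urine (-0.86). Rab31, which links the trans-Golgi and endosomes, had 2.56 and 3.20. None of these 5 passed the limit on the log2(FPKM + 1) scale. The early endosome class made up 5.01% of the summed Rab FPKM in WT and 11.9% in UUO urine, a share that does not depend on the scaling of a library. Its UUO sum of 103.3 includes 20.1 from the Rab5a entry, to which the caution below applies.

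Rab5a needs a caution. It was listed at 0 in WT and at 20.1 in UUO urine, but its entry lies in the rn5 build at chr14:72907955-72910064, a span of 2109 bases, on another chromosome than the one RefSeq gives for Rab5a in GRCr8, and the authors' table marks the row as LOWDATA. The locus holds 6 features, and 1 of them, NONRATT018562 of a noncoding RNA database, was listed at 7299 in UUO and at 0 in WT urine. Rab12 is the only other member whose listed chromosome differs from the RefSeq one. Without both, the Rab counts were 8 higher and 18 lower, and the early endosome median was 0.02.

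The recycling endosome Rabs were detected in both urines without exception, and the 9 members went in different directions. Of them 4 were lower, 0 were higher and 5 were within the limit, with a median of -0.91 that lay between -0.33 and -0.08 under the rescalings. For all genes, 36.6% were lower and 25.6% higher, with a median of -0.51 that moved to between 0.15 and 0.46. Rab4a, which returns receptors quickly to the surface, stood at 48.8 FPKM in WT against 7.27 in UUO urine, 6.72-fold lower. Rab14, which acts between endosomes and the Golgi, had 145 and 39.9, 3.64-fold lower. Rab15, which is found on early and recycling endosomes, had 97.4 and 36.5. Rab11b had 64.8 and 31.6 and passed the limit by little, at -1.01. Rab4b, at 18.5 and 9.40, lay just inside the limit at -0.91. Rab4a stayed past the limit under all 3 rescalings, Rab14 under all but the median ratio (-0.96), and Rab15 and Rab11b under none.

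The other recycling Rabs were near their WT level or above it. Rab11a, the form that marks the slow recycling endosome in most cells, had 26.9 in WT against 42.0 in UUO urine (0.62). Rab17, an epithelial Rab of apical recycling, had 21.1 and 36.4 (0.76), and its entry shares its locus with no other feature. Rab25, the epithelial member of the Rab11 group, had 111 and 84.7 (-0.39), and Rab35, which acts in endocytic recycling, had 8.46 and 8.70. Rab25 exceeded 98.2% of all genes with a symbol in UUO and 96.6% in WT urine. After each rescaling Rab11a and Rab17 passed the 2-fold limit upward, at 1.24 and 1.37 after rescaling to equal sums.

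The late endosome and lysosome Rabs had the lowest class median among genes that passed the filter, -1.44, with members at both ends. Of the 7 members 6 passed the filter, 3 were lower, 2 higher and 1 within the limit. The shares over all genes were 36.6% lower and 25.6% higher, with a median of -0.51. Rab7a, which drives late endosomes toward fusion with lysosomes, stood at 186 FPKM in WT against 37.9 in UUO urine, 4.91-fold lower, and exceeded 98.3% of all genes with a symbol in WT urine. Rab29, a lysosome and trans-Golgi Rab, had 95.1 and 21.3, and Rab34, which positions lysosomes, had 70.4 and 15.6. All 3 lay between -2.27 and -2.11 and stayed past the limit under every rescaling. Rab24, a Rab linked to autophagy, had 67.6 and 38.9 (-0.78). Its locus also holds Prelid1, at 542 in WT against 86.6 in UUO urine, and summed over the locus the difference was -2.25.

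Rab9a and Rab7b went the other way. Rab9a, which serves the return of mannose 6-phosphate receptors from late endosomes to the Golgi, was listed at 0 in WT and had 7.34 in UUO urine. Rab7b, which acts in traffic from late endosomes to the trans-Golgi, was listed at 0 and had 3.12. Rab9b was listed at 0 in WT and at 0.446 in UUO urine. The class held 22.5% of the summed Rab FPKM in WT and 14.4% in UUO urine.

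The secretory Rabs held the lowest difference of the family, that of Rab3d, and differences up to 3.43. Of 13 members 10 passed the filter, 4 were lower, 4 higher and 2 within the limit, where 36.6% of all genes were lower and 25.6% higher. The class median was 0.42. That median was -1.29 over the 6 members detected in both urines, -0.69 at an FPKM of at least 5 and -0.23 with FPKM summed over each locus, so the sign of the class median turned with these settings. Rab3d, found on the granules of exocrine cells, stood at 208.6 FPKM in WT against 14.9 in UUO urine, 14.0-fold lower, a difference of -3.72. Its locus (rn5, chr8:22973486-22992693) also holds Tmem205, at 13.6 in WT against 7.12 in UUO urine, and summed over the 11 features of the locus the difference was -3.28. Rab27b, the form of the urothelial fusiform vesicle, had 47.4 and 18.0, 2.63-fold lower. Rab8a, which delivers vesicles to the apical membrane and the cilium, had 52.8 and 19.7, and Rab32, a Rab of lysosome-related organelles, had 10.5 and 3.89. Rab3d stayed past the limit under every rescaling, and Rab27b, Rab8a and Rab32 under none. Rab10, which serves delivery to the basolateral membrane, had 30.03 and 26.9.

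The higher secretory Rabs were near 0 or listed at 0 in WT urine. Rab13, which acts at tight junctions, was listed at 0 in WT and had 9.80 in UUO urine. Summed over its locus the difference was 0.39, because a noncoding entry there, NONRATT029794, had 10.4 in WT against 2.83 in UUO urine. Rab8b was listed at 0 and had 5.55, and Rab38, a partner of Rab32 in lysosome-related organelles, was listed at 0 and had 2.51. Rab27a, the form of Rab27 known from leukocyte granules and melanosomes, had 4.74 in WT against 10.4 in UUO urine and lay just inside the limit at 0.99, which it passed under every rescaling (1.57 at equal sums). Rab3a, the synaptic vesicle form, had 2.32 in UUO urine. Its locus also holds Mpv17l2, at 27.3 in WT against 12.5 in UUO urine, and summed over the locus the difference turned to -0.89.

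The ER and Golgi Rabs had 0 higher and 5 lower members among the 10 that passed the filter, with a median of -1.17. Among all genes, 25.6% were higher and 36.6% lower, with a median of -0.51. Rab6a, which directs transport at the Golgi, stood at 126 FPKM in WT against 46.1 in UUO urine, and its paralogue Rab6b had 6.90 in WT and was listed at 0 in UUO urine. Rab43, a Golgi Rab, had 75.2 and 19.6, 3.83-fold lower. Rab2b had 8.07 and 1.48, and Rab19 had 7.28 and 1.52. Of these 5, Rab43, Rab2b and Rab19 stayed past the limit under every rescaling, and Rab6a under none. For Rab6b the outcome was fixed in advance, because its UUO value of 0 does not change under a rescaling. Rab2b shares its locus with Tox4, and summed over the locus its difference was -0.46.

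The other ER and Golgi Rabs lay inside the limit. Rab1a, which is needed for transport from the ER to the Golgi, had 86.0 in WT against 65.7 in UUO urine, and Rab1b had 11.2 and 9.62. Rab2a had 39.0 and 20.4 (-0.90), and Rab18, a Rab of the ER and lipid droplets, had 6.62 and 3.67. Rab33b, which binds the autophagy machinery at the Golgi, had 11.9 and 12.1. The class held 20.3% of the summed Rab FPKM in WT and 20.8% in UUO urine.

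Among the 7 Rabs outside these classes, 2 were higher and 2 were lower of the 5 that passed the filter. The shares over all genes were 25.6% and 36.6%. Rab20, an endosome and phagosome Rab known to be induced by hypoxia, stood at 2.51 FPKM in WT against 29.5 in UUO urine, 11.8-fold higher, a difference of 3.12. It exceeded 55.1% of all genes with a symbol in WT and 92.7% in UUO urine. Its entry lies in rn5 at chr16:82824910-82848168, and summed over the 3 features of the locus the difference was 2.55. Rab40c, a Rab with a SOCS box that takes part in ubiquitin ligases, had 59.2 and 6.64, 8.92-fold lower. Its locus holds 13 features, among them Mettl26, which was listed at 0 in WT and had 9.45 in UUO urine, and the summed difference was -1.61. Its paralogue Rab40b was listed at 0 in WT and had 2.26 in UUO urine. Rab28, a ciliary Rab, had 6.01 and 1.61, and Rab23, a Rab of Hedgehog signalling, had 6.14 and 7.86. Summed over its locus, where NONRATG030778 had 19.8 in WT and was listed at 0 in UUO urine, the difference of Rab23 turned from 0.31 to -1.64.

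Rab20 and Rab3d are the genes detected in both urines with the greatest difference upward and downward, and the 250 bases before their starts are printed to show 2 promoters of the family. They were read from a RefSeq table of GRCr8, at chr16:84721177-84721426 on the plus strand for Rab20 and chr8:28725268-28725517 on the minus strand for Rab3d. Capitals mark GC boxes (GGGCGG on either strand) and ACGTG on either strand, a form of the core of the hypoxia response element. These motifs were chosen with the values known. GCGTG, the other form of that core, was not searched for, and both windows hold it when either strand is read.
Rab20: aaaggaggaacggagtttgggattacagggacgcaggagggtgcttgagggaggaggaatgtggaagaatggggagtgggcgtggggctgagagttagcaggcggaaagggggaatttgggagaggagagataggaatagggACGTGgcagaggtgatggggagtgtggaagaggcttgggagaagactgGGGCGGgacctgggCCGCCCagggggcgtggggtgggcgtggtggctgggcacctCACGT
Rab3d: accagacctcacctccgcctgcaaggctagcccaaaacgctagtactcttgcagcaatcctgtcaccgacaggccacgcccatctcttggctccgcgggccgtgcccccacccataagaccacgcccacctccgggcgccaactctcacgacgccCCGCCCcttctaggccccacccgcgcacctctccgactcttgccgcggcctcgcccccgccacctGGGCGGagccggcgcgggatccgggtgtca
The Rab20 window holds 2 GC boxes and 2 ACGTG, and the Rab3d window holds 2 GC boxes and 0 ACGTG. The table has such a window for 45 of the 55 Rab genes. Of these 35 (77.8%) hold a GC box and 0 a TATAAA, against 32.4% and 13.1% of all 27457 windows, and 59.0% and 6.37% of those of 8100 genes that passed the filter. ACGTG was in 10 windows (22.2%), against 16.9% of all and 22.5% of the genes that passed. CAGACA, a Smad3 element, was in 6 (13.3%), against 16.9% and 13.2%. A match of letters describes the window only. The 10 genes with ACGTG are Rab1a, Rab3b, Rab5a, Rab6a, Rab7a, Rab7b, Rab20, Rab21, Rab31 and Rab40c, of which Rab6a, Rab7a and Rab40c were lower and Rab5a, Rab7b and Rab20 higher in UUO urine. The measured Rab5a entry lies on another chromosome than the RefSeq gene, so its values and this window are not those of the same locus.

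Within paralogue families the balance between members differed between the urines. Such a balance is a share of the family's summed FPKM in 1 library, so it does not depend on the scaling of that library. Rab27a made up 9.11% of the Rab27 sum in WT against 36.6% in UUO urine, and the ratio of Rab27b to Rab27a was 9.98 and 1.73. Rab11a made up 29.4% of the Rab11 sum in WT against 57.1% in UUO urine, so that the leading form was Rab11b in WT and Rab11a in UUO urine. Rab4a made up 72.5% and 43.6% of the Rab4 sum, so that the leading form was Rab4a in WT and Rab4b in UUO urine. The UUO values were 7.27 for Rab4a and 9.40 for Rab4b, whose locus of 19 features also holds Egln2 and Cyp2t1. Rab8b made up 22.0% of the Rab8 sum in UUO urine and was listed at 0 in WT urine, and Rab7b likewise made up 7.60% of the Rab7 sum. In the Rab1 and Rab2 families the a form led in both urines: Rab1a made up 88.5% and 87.2% of the Rab1 sum, and Rab2a 82.8% and 93.2% of the Rab2 sum. Paralogues are alike in sequence, and how the authors' counting divided reads between them is not given in the sources used here.

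**Figure D3:**
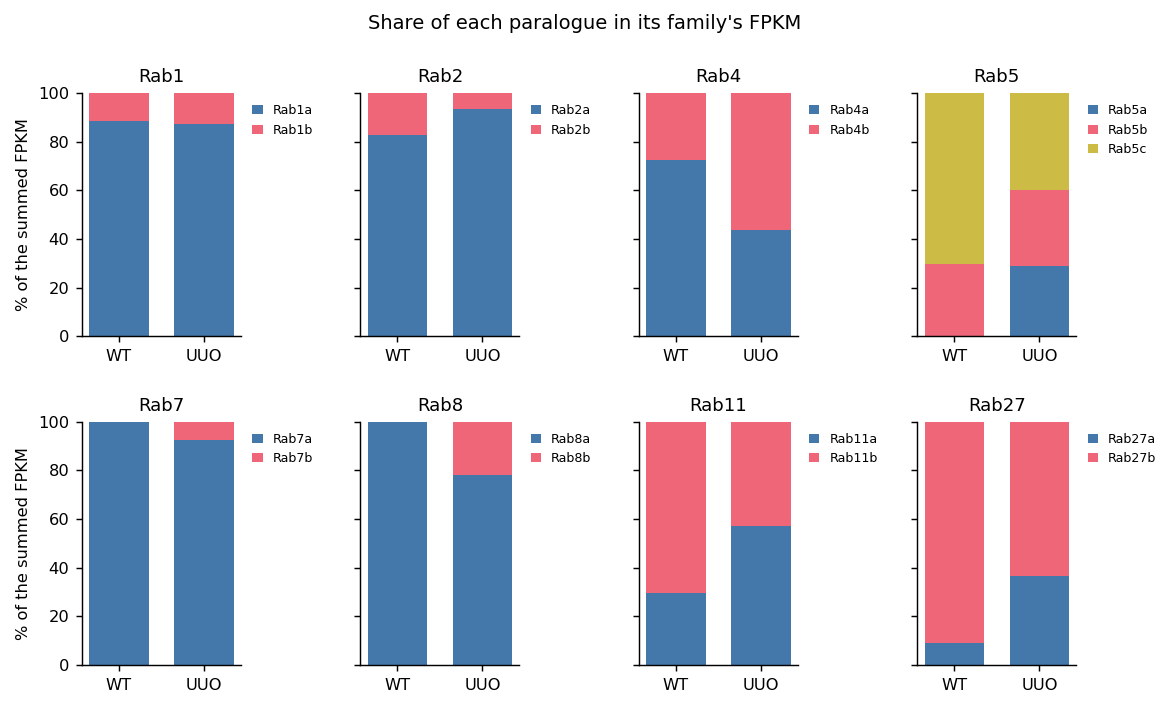
Share of each paralogue in the summed FPKM of its family, in percent, in the WT and UUO libraries, for 8 of the 13 families with 2 or more members. Rab27a takes 9.11% in WT against 36.6% in UUO urine, Rab11a 29.4% and 57.1%, while Rab1a takes 88.5% and 87.2%.

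Among the regulators of the Rab cycle, more genes were lower than higher in UUO urine, as among all genes (36.6% lower and 25.6% higher). Of a list of 28, 24 were found and 22 passed the filter, with 11 lower, 2 higher and a median of -1.05, against -0.51 for all genes. Under the 3 rescalings the median lay between -0.49 and -0.25, with 4 to 7 lower. That of all genes then lay between 0.15 and 0.46, with 15.6% to 20.9% lower. Tbc1d10a, a GTPase-activating protein for Rab27 and Rab35, stood at 232 FPKM in WT against 44.3 in UUO urine. Rabggta, a subunit of the enzyme that attaches the lipid anchor to Rabs, had 27.7 and 4.69, and Rab3gap2, a subunit of a complex that acts on Rab3 and Rab18, had 30.3 and 5.63. Gdi2, a GDI, had 99.2 and 64.9 (-0.61). The 2 higher genes were both listed at 0 in WT urine: Rabgap1l had 5.47 and Rab3il1, an exchange factor of the Rab8 group, had 4.12 in UUO urine. Summed over its locus, the difference of Rabgap1l was 0.26.

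The Rab effectors showed the greatest differences of the pathway. Of a list of 35, 30 were found and 28 passed the filter, with 17 lower, 3 higher and a median of -1.37, against 36.6% lower, 25.6% higher and a median of -0.51 for all genes. Under the rescalings the median lay between -0.78 and -0.52, with 8 to 11 lower. That of all genes then lay between 0.15 and 0.46, with 15.6% to 20.9% lower. Sytl5, a synaptotagmin-like protein that binds Rab27, stood at 714 FPKM in WT against 4.28 in UUO urine, a difference of -7.08. Sytl3 had 72.2 and 0.848 (-5.31), and Sytl4 had 98.6 and 4.76 (-4.11). Sytl1 had 511 and 78.9, and Mlph, melanophilin, which couples Rab27 to a myosin, had 266 and 48.9. These are the 5 synaptotagmin-like and melanophilin genes of the list that were found, and all 5 were lower, as was Myo5a, the myosin that melanophilin recruits, at 24.1 and 9.36. They were grouped after their values were seen. Unc13d (Munc13-4), another Rab27 effector, known from leukocyte granule release, was listed at 0 in WT and had 4.46 in UUO urine. Sytl1 shares its locus with 68 other features, and with FPKM summed over each locus the differences of the 5 genes ran from -7.01 to -2.07.

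**Figure D4:**
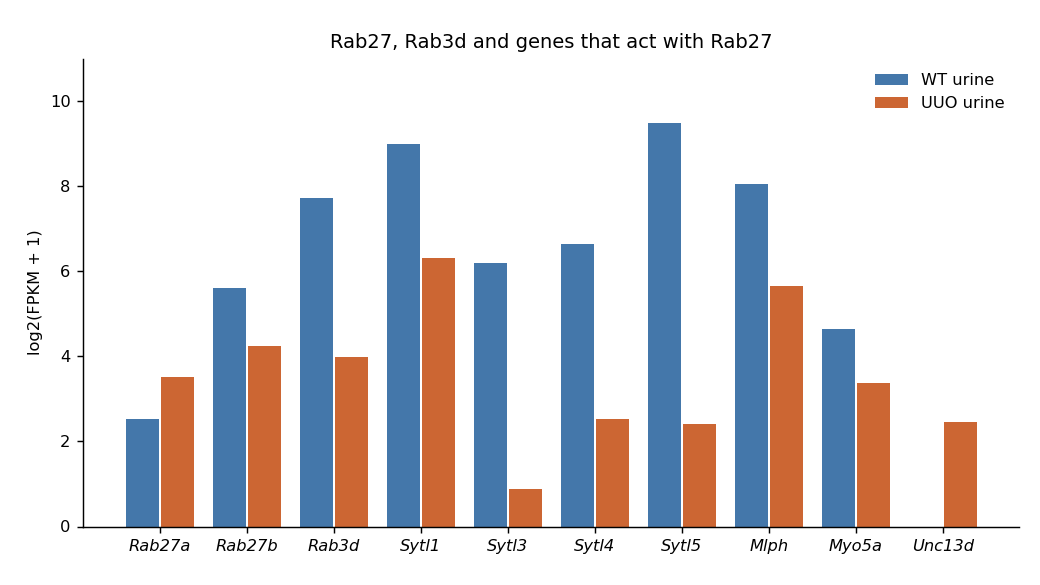
Level of Rab27a, Rab27b, Rab3d and genes that act with Rab27, as log2(FPKM + 1), with 1 bar for the WT and 1 for the UUO library. The 4 Sytl genes, Mlph and Myo5a are higher in WT urine, Rab27a is higher in UUO urine, and Unc13d has no WT bar because it is listed at 0.

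Several effectors of the endosomal Rabs were lower, and others lay inside the limit or were listed at 0 in WT urine. Eea1, the tether that Rab5 recruits to early endosomes, had 42.2 in WT against 5.16 in UUO urine (-2.81), and Appl2, another Rab5 effector, had 17.7 and 0.446 (-3.69). Rbsn had 13.1 and 4.34 (-1.40), and Rabep2 had 29.8 and 14.7 (-0.97), while Rabep1 had 7.88 and 12.1 (0.56). Of the Rab11 effectors, Rab11fip1 had 47.3 and 42.8 and Rab11fip4 had 37.0 and 26.7. The subunits of the tethering complexes on the Rab7 side that were found (Vps11, Vps16, Vps18, Vps33a, Vps39 and Vps41) lay between -1.72 and -0.82, and Plekhm1, which links Rab7 to them, was at -1.77. Rilp, the Rab7 effector that recruits dynein, was listed at 0 in WT and had 3.73 in UUO urine, and Rab11fip2 was listed at 0 and had 2.72. Summed over the locus, Rilp turned to -1.54 and Rab11fip2 to 0.83.

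Other vesicle gene lists did not follow the Rab genes in one way. For all genes that passed the filter, 36.6% were lower and 25.6% higher. Their median moved from -0.51 to between 0.15 and 0.46 under the rescalings. Of the 26 ESCRT and exosome genes found, all passed the filter, with 7 lower and 2 higher. Their median of -0.40 turned to between 0.22 and 0.48 under the rescalings, near that of all genes. Hgs had 117 in WT against 22.0 in UUO urine, Pdcd6ip had 147 and 32.5, and Chmp3 had 336 and 92.5, whereas Cd9 was listed at 0 in WT and had 17.1 in UUO urine, Cd81 had 8.16 and 22.5 and Sdcbp had 65.5 and 91.0. Of the 26 lysosome genes found, 25 passed, and 12 were higher and 2 lower, with a median of 0.87 that grew to between 1.49 and 1.76 under the rescalings. Npc2 had 39.7, Ctsz 15.6 and Gla 4.997 in UUO urine, and all 3 were listed at 0 in WT urine. The lower lysosome genes were Glb1, at 14.8 in WT against 3.98 in UUO urine, and Atp6v0d1, at 186 and 57.9. Lamp2 had 14.8 and 10.1. The median of lysosome genes thus lay above 0 and that of late endosome and lysosome Rabs below it. The difference between the lists was not tested.

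Most Rab entries share their locus with other features of the table. This holds for 53 of the 55, of which 7 share it with another gene (Rab24, Rab2b, Rab35, Rab3a, Rab3d, Rab40c and Rab4b), and reads of a locus can be divided among its entries. Without those 7, 8 Rab genes were higher and 15 lower, with a median of -0.39. Over all genes that passed the filter, with no such limit on loci, 25.6% were higher and 36.6% lower, with a median of -0.51.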

How the data were processed

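Urine RNA of 1 WT (sham-operated) and 1 UUO rat library was analysed. Per the labels (submitters' processing notes) the authors aligned reads to rn5 with Bowtie2 2.0.6 and TopHat2 2.0.9 and used Cufflinks and Cuffdiff 2.1.1, beside Scripture per the methods. The study's methods name rRNA removal and a strand-specific kit for kidney RNA, and a column kit for urine, where the labels name Trizol. The authors deposited 1 FPKM value per feature and library, and which total scaled it is not given in the sources used here. Their fold changes, p-values and q-values were not used.

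Symbols came from a RefSeq table of GRCr8, which matched 16329 of 16484 gene IDs. Differences are log2(FPKM + 1), UUO minus WT, with a limit of 2-fold, among genes that reached an FPKM of 1 in WT or UUO urine. The conditions are named Urc and UrRf, read as WT and UUO. If that reading were wrong, every direction would be opposite. With 1 library per group no test was possible. Medians and counts were set beside those of all genes with a symbol. Functions were tested on simulated data. Python 3.11.15, numpy 2.4.6 and pandas 2.3.3 were used.

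Every Rab gene could be named. Of the pathway lists, the 3 members with the greatest difference each way were named. Further pathway genes and the few marker genes were named after their values were seen. Members, compartments and lists were chosen with earlier results of these data known. Alternatives were another pseudocount, filter, limit or scaling, and FPKM summed over the locus. The values of 1 gene of the Rab cycle list are not reported here.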

Additional observations from a re-analysis of the deposited data

Results flagged for a closer look

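A pair of entries of a noncoding RNA database at Rab loci, outside the Rab comparison, had signal in UUO urine and were listed at 0 in WT urine. NONRATT018562, at the locus listed for Rab5a, had an FPKM of 7299 in UUO urine, and NONRATG007890, at the locus of Rab35, had 7.10. They were picked as entries with an FPKM of at least 5 in UUO and under 1 in WT urine. With 1 library per group, no sample could be set apart from others of its group, and no difference between groups of samples could be tested.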

How the results depend on the processing

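No paired analysis was possible because WT and UUO each have a single library, and for the same reason no library could be left out. Counts within 1.5 times of the reported one, and medians and single differences with the same sign and on the same side of 1, count here as unchanged. The counts of Rab genes detected in WT and UUO urine were unchanged under the alternatives run for them, but at an FPKM of at least 5 their order turned, to 35 and 34. The number of higher genes was 5 at an FPKM of at least 5, 2 with a pseudocount of 10, 14 with the median ratio or the 75th percentile, and 1 among genes detected in both urines. The number of lower genes was 7 at a 4-fold limit, 10 with the median ratio and 11 with the 75th percentile. The median of all Rab genes was 0.23 with the median ratio and 0.18 with the 75th percentile.

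The secretory median was 1.01 at equal sums, 1.27 with the median ratio, 1.22 with the 75th percentile, -0.69 at an FPKM of at least 5, -1.29 among genes detected in both and -0.23 summed over the locus. The late endosome and lysosome median was -0.84, -0.57 and -0.63 under the 3 rescalings and -0.78 without a filter. The ER and Golgi median was -0.56, -0.30 and -0.35 under the rescalings, -0.62 with a pseudocount of 10, -0.90 without a filter, among genes detected in both and without loci with another gene, and -0.69 summed over the locus. The median of the other Rabs was 1.13 with the median ratio, 1.08 with the 75th percentile, -0.56 at an FPKM of at least 5 and among genes detected in both, 1.93 summed over the locus and 1.01 without loci with another gene, where the recycling endosome median was -1.01. Rab3a reversed to -0.89 when summed over its locus. A filter or a choice of members changes which genes are counted, and each rescaling raises all UUO values above 0 by 1 factor. The cause of the other shifts was not tested. Leaving out Rab5a and Rab12, keeping genes detected in both and leaving out loci with another gene were chosen after seeing the data.

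Of 276 combinations of a single Rab gene with an alternative, 201 were unchanged, 54 kept their sign and crossed the limit, and 19 changed sign inside it. In the other 2, Rab3a and Rab23 summed over the locus, both sign and side of the limit changed. Low FPKM values rest on few fragments, among them those of Rab3a, Rab38 and Rab40b, which were called higher at under 3 in UUO urine.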
